A study of Mus musculus with 23 samples.

Results

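The 9 genes described here encode surface molecules by which leukocytes slow down, stop and cross vessel walls: the integrin chains Itgam, Itgax, Itgal, Itgb2 and Itga4, the selectin ligand Selplg, and the molecules they bind on other cells, Icam1, Vcam1 and Sele. They were chosen by symbol from a count table of 48397 gene symbols, and all 9 have a row in it. The rule uses the symbols alone.

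Leukocytes first roll along activated endothelium when P-selectin glycoprotein ligand, the product of Selplg, is held by selectins such as E-selectin, the product of Sele. Integrins on the leukocyte are then switched to a high-affinity form. The alpha chains encoded by Itgal, Itgam and Itgax each pair with the shared beta chain of Itgb2 to give LFA-1, Mac-1 and CD11c/CD18, and LFA-1 and Mac-1 bind Icam1. The alpha chain of Itga4 pairs with other beta chains and binds Vcam1. Itgal is carried by most leukocytes, Itgam mainly by myeloid and natural killer cells, and Itgax by dendritic cells and many tumour macrophages. Icam1, Vcam1 and Sele are classical inflammation-induced genes of endothelium, and Icam1 and Vcam1 are also made by other cell types, tumour cells among them.

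The study sorted cells from Met1-iRFP breast tumours of FVB mice and sequenced their polyA RNA. Met-1 cells are a mammary cancer line that came from an MMTV-PyMT mouse, and here they carry iRFP, a near-infrared fluorescent protein. By this label alone the labels call iRFP-negative cells tumour microenvironment (TME) cells and iRFP-positive cells cancer cells. The question named in the series title is how exercise changes the immune microenvironment, the cancer cells and their interaction. There were 4 libraries of TME cells from exercised mice (numbers 7, 8, 9 and 10), 4 of TME cells from sedentary mice (4, 6, 9 and 10), 7 of cancer cells from exercised mice (1, 2, 4, 5, 7, 8 and 10) and 8 of cancer cells from sedentary mice (2, 3, 4, 5, 6, 7, 9 and 10). The kind and length of the exercise, the age of the mice and whether each library comes from a separate mouse are not stated by the labels, so the p-values below measure only the spread between these libraries.

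Libraries held 15924340 to 37388479 counts, and levels are given as CPM, counts scaled to a common library size. A pan-leukocyte level, the mean log2 CPM of 12 markers that include Ptprc (CD45) and none of the 9 genes, was 3.48, 6.0, 6.01 and 4.18 in TME cells from exercised mice (libraries 7, 8, 9 and 10), against 4.15, 4.14, 4.38 and 4.07 in TME cells from sedentary mice (libraries 4, 6, 9 and 10). Libraries 8 and 9 of exercised mice therefore stood apart, by more than 1 log2 unit, from the other 6 TME libraries. Most fitted and summed results of the 9 genes in TME cells are given below with and without them. Results of the marker lists and of lists of other genes include them unless stated. Their levels of the macrophage, T cell and mast cell lists were also the highest of the TME libraries, while their endothelial levels, 1.88 and 2.34, were the lowest. In cancer cells the pan-leukocyte level ran from 0.71 to 2.0 with exercise, highest in library 8, and from -0.02 to 1.0 without. All 12 pan-leukocyte markers, 11 of 12 endothelial and 8 of 10 fibroblast markers were higher in TME than in cancer cells. Of 8 epithelial markers, Krt8, Krt19, Cldn4 and Cldn7 were too low to test, and of the other 4 tested 1 was higher and none was lower in TME cells, so epithelial genes did not separate the sorts. Mitochondrial genes held 2.61% to 8.63% of counts in TME libraries of exercised mice and 42.2%, 14.5%, 3.22% and 6.57% in TME libraries 4, 6, 9 and 10 of sedentary mice, and 1.86% to 3.9% in cancer libraries. In sorted but mixed cells, fewer cells of a type and less RNA per cell cannot be told apart.

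The promoters of 3 genes are shown for the contrast in what follows, a leukocyte integrin and a counter-receptor that were both much higher in TME cells, and a selectin that was close to 0 everywhere. RefSeq entries (GRCm38.p6) were matched for 5 of the 9 genes, Itgam, Itgax, Itga4, Icam1 and Sele. Each run below is the 250 bases before the RefSeq start, 5′ to 3′ on the plus strand, which is the gene's strand, and capitals mark letters that match GAGGAA (the core bound by the myeloid factor PU.1), TATAAA or GGANATTCC (a pattern close to the NF-kB site, chosen after these sequences had been read) on either strand.
Itgam, chr7:128062390-128062639: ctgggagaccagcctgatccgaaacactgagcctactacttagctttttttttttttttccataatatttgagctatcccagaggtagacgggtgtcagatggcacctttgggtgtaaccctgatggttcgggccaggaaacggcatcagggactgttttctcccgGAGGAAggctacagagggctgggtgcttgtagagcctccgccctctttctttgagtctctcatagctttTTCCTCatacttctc
Icam1, chr9:21015690-21015939: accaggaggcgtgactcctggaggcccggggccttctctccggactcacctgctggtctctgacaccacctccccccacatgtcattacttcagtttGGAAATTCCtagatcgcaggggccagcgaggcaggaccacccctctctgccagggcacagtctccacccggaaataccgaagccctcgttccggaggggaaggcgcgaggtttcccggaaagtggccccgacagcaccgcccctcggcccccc
Sele, chr1:164047984-164048233: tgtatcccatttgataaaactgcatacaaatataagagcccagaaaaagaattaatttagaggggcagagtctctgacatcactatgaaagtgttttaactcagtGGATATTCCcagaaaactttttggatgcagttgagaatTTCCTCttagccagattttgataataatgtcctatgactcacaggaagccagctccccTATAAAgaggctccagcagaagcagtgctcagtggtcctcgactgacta

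The Itgam window holds GAGGAA from 84 to 79 bases before the start and, on the other strand, from 15 to 10 bases before it. In the Icam1 window GGAAATTCC lies from 153 to 145 bases before the start, and the GENCODE gene begins 46 bases after the last base of that window. Sele has GGATATTCC from 145 to 137, GAGGAA on the other strand from 107 to 102 and TATAAA from 49 to 44 bases before the start. Among 32851 promoter windows of the same length, 23.3% held GAGGAA, 12.4% held TATAAA, 0.819% held GGANATTCC and 3.9% held the longer NF-kB consensus, which matched in none of the 5. Because GGANATTCC was chosen after these windows had been read, its share cannot show how unusual its matches in Icam1 and Sele are. The Itgax and Itga4 windows held none of these letters. Such matches describe the sequence and say nothing of whether a factor is bound.

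On GRCm38 (GENCODE M21) the 3 alpha chain genes of the beta-2 integrins lie on the plus strand of chromosome 7, Itgal at 127296260-127335138, Itgam at 128062640-128118491 and Itgax at 128129547-128150657, with 11055 bases between Itgam and Itgax. Itgb2 is at 77530252-77565708 on chromosome 10, Itga4 at 79255426-79333123 on chromosome 2, Selplg at 113818536-113832644 on chromosome 5, Icam1 at 21015985-21028817 on chromosome 9, Vcam1 at 116109949-116129688 on chromosome 3 and Sele at 164048234-164057677 on chromosome 1. Values are sums over each gene's exons. Of the 5024 exon bases of Itgam, 3450 are shared with Gm49368, an annotated protein-coding gene on the same strand. Gm49368 has no row among the counted symbols, and the annotation release is not stated, so whether it was used in counting is unknown. How reads on the shared bases were counted is not stated either, so the level of Itgam is uncertain to that extent. Itga4 shares 1124 exon bases with Cerkl on the opposite strand, which averaged 1.91 counts per library, and Icam1 shares 511 with the antisense gene Gm47079.

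Where the 9 genes are expressed was asked first, by setting TME cells against cancer cells over all 23 libraries. In total 7 of the 9 genes, all 5 integrin chains, Selplg and Icam1, were higher in TME cells at an adjusted p under 0.05, Vcam1 did not pass, and Sele was near 0 in both sorts. Across all genes tested 25.3% passed in that direction, and 52.6% in either (9201 of 17503). The median log2 fold change was 3.47 for the 9 genes and -0.01 for all genes tested. Adjusted p-values in the report are from edgeR's quasi-likelihood test, Benjamini-Hochberg adjusted over all genes of the fit, with a threshold of 0.05.

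Itgam, the alpha chain of Mac-1, had 21.1, 154, 184 and 39.6 CPM in TME cells from exercised mice (libraries 7, 8, 9 and 10) and 16.7, 36.6, 39.7 and 26.2 CPM in TME cells from sedentary mice (libraries 4, 6, 9 and 10, the order used throughout). Cancer cells had 2.98 to 9.67 CPM with exercise (median 4.96, 7 libraries) and 1.87 to 5.21 CPM without (median 2.81, 8 libraries). Every TME library lay above every cancer library, and the fitted log2 fold change of TME over cancer cells was 3.73 ± 0.32 (SE), with an adjusted p of 6.92e-09 from edgeR.

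Itgax, the alpha chain known as CD11c, had 11.6, 63.5, 63.3 and 22.2 CPM in TME cells from exercised mice and 12.1, 23.3, 16.9 and 15.5 CPM in TME cells from sedentary mice. In cancer cells it ran from 1.33 to 4.05 CPM with exercise (median 1.86) and from 0.860 to 3.18 CPM without (median 1.63). The TME and cancer libraries did not overlap, and the log2 fold change was 3.68 ± 0.27 (edgeR, adjusted p = 2.89e-10).

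Itgal, the alpha chain of LFA-1, had 15.01, 111, 112 and 25.2 CPM in TME cells with exercise and 14.4, 19.3, 28.8 and 18.3 CPM without. Cancer cells had 2.40 to 6.08 CPM (median 2.78) with exercise and 1.76 to 4.56 CPM (median 3.54) without. Again no cancer library reached the lowest TME library, and the log2 fold change was 3.47 ± 0.30 (edgeR, adjusted p = 6.26e-09).

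Their shared partner Itgb2 had 29.7, 125, 118 and 34.9 CPM in TME cells with exercise and 27.3, 39.7, 41.5 and 34.1 CPM without. Its level in cancer cells was 10.3 to 17.9 CPM (median 11.2) with exercise and 8.57 to 13.3 CPM (median 10.3) without. The sorts did not overlap, and the log2 fold change of 2.22 ± 0.20 (edgeR, adjusted p = 4.38e-09) was the smallest of the 7 that passed.

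Itga4, which binds Vcam1, had 4.34, 28.8, 31.5 and 6.21 CPM in TME cells with exercise and 1.68, 5.38, 8.29 and 4.16 CPM without. Cancer cells had 0.664 to 3.39 CPM (median 1.47) with exercise and 0.459 to 1.34 CPM (median 1.19) without. The sorts did not overlap within a treatment, but library 4 of TME cells from sedentary mice lay below the highest cancer library from exercised mice. The log2 fold change was 2.75 ± 0.33 (edgeR, adjusted p = 3.25e-07).

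Selplg, the ligand for selectins, had 3.02, 24.8, 25.4 and 6.83 CPM in TME cells with exercise and 6.55, 6.50, 8.08 and 4.33 CPM without, against 0.310 to 1.74 CPM (median 0.650) in cancer cells with exercise and 0.153 to 1.11 CPM (median 0.497) without. It showed the largest log2 fold change of the 9 genes, 3.89 ± 0.35 (edgeR, adjusted p = 2.94e-09), again with no overlap of the sorts.

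Of the counter-receptors, Icam1 had 12.99, 30.5, 32.4 and 12.2 CPM in TME cells with exercise and 8.80, 9.59, 9.39 and 7.15 CPM without. In cancer cells it stayed between 0.569 and 2.04 CPM (median 1.35) with exercise and between 0.421 and 1.89 CPM (median 0.992) without. Like Itgam, Itgax, Itgal, Itgb2 and Selplg it showed no overlap of the sorts. Its log2 fold change was 3.59 ± 0.23 (edgeR, adjusted p = 4.22e-12). The endothelial markers, with a median of 4.63, and the fibroblast markers, with 3.06, were mostly higher in TME cells too. Which cells held Icam1 was not tested.

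Vcam1 had 179, 254, 341 and 189 CPM in TME cells with exercise and 151, 174, 202 and 170 CPM without. Cancer cells had 168 to 255 CPM (median 210) with exercise and 153 to 286 CPM (median 210) without. The ranges of all 4 groups overlapped, and the log2 fold change of TME over cancer cells was -0.03 ± 0.11 (edgeR, adjusted p = 0.824). Its sign was not stable, being -0.27 among sedentary libraries and 0.33 among exercised ones, with adjusted p of 0.146 and 0.126 from edgeR. Vcam1 shares 61 exon bases with the antisense gene Gm43109, which averaged 0.827 counts per library.

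Sele was close to the floor of detection. It had 14, 3, 9 and 2 counts in the TME libraries of exercised mice, or 28 in all, and 0, 0, 2 and 0 counts in those of sedentary mice. Cancer cells had 39 counts over 7 libraries with exercise, of which 1 library was at 0, and 40 counts over 8 libraries without, of which 3 were at 0. No library passed 0.715 CPM. The fitted log2 fold change of TME over cancer cells was -1.67 ± 0.77 (edgeR, adjusted p = 0.0714), a value that depends on how the fit treats the libraries at 0, and without libraries 8 and 9 it was -1.46 ± 0.89 (adjusted p = 0.184).

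**Figure D1:**
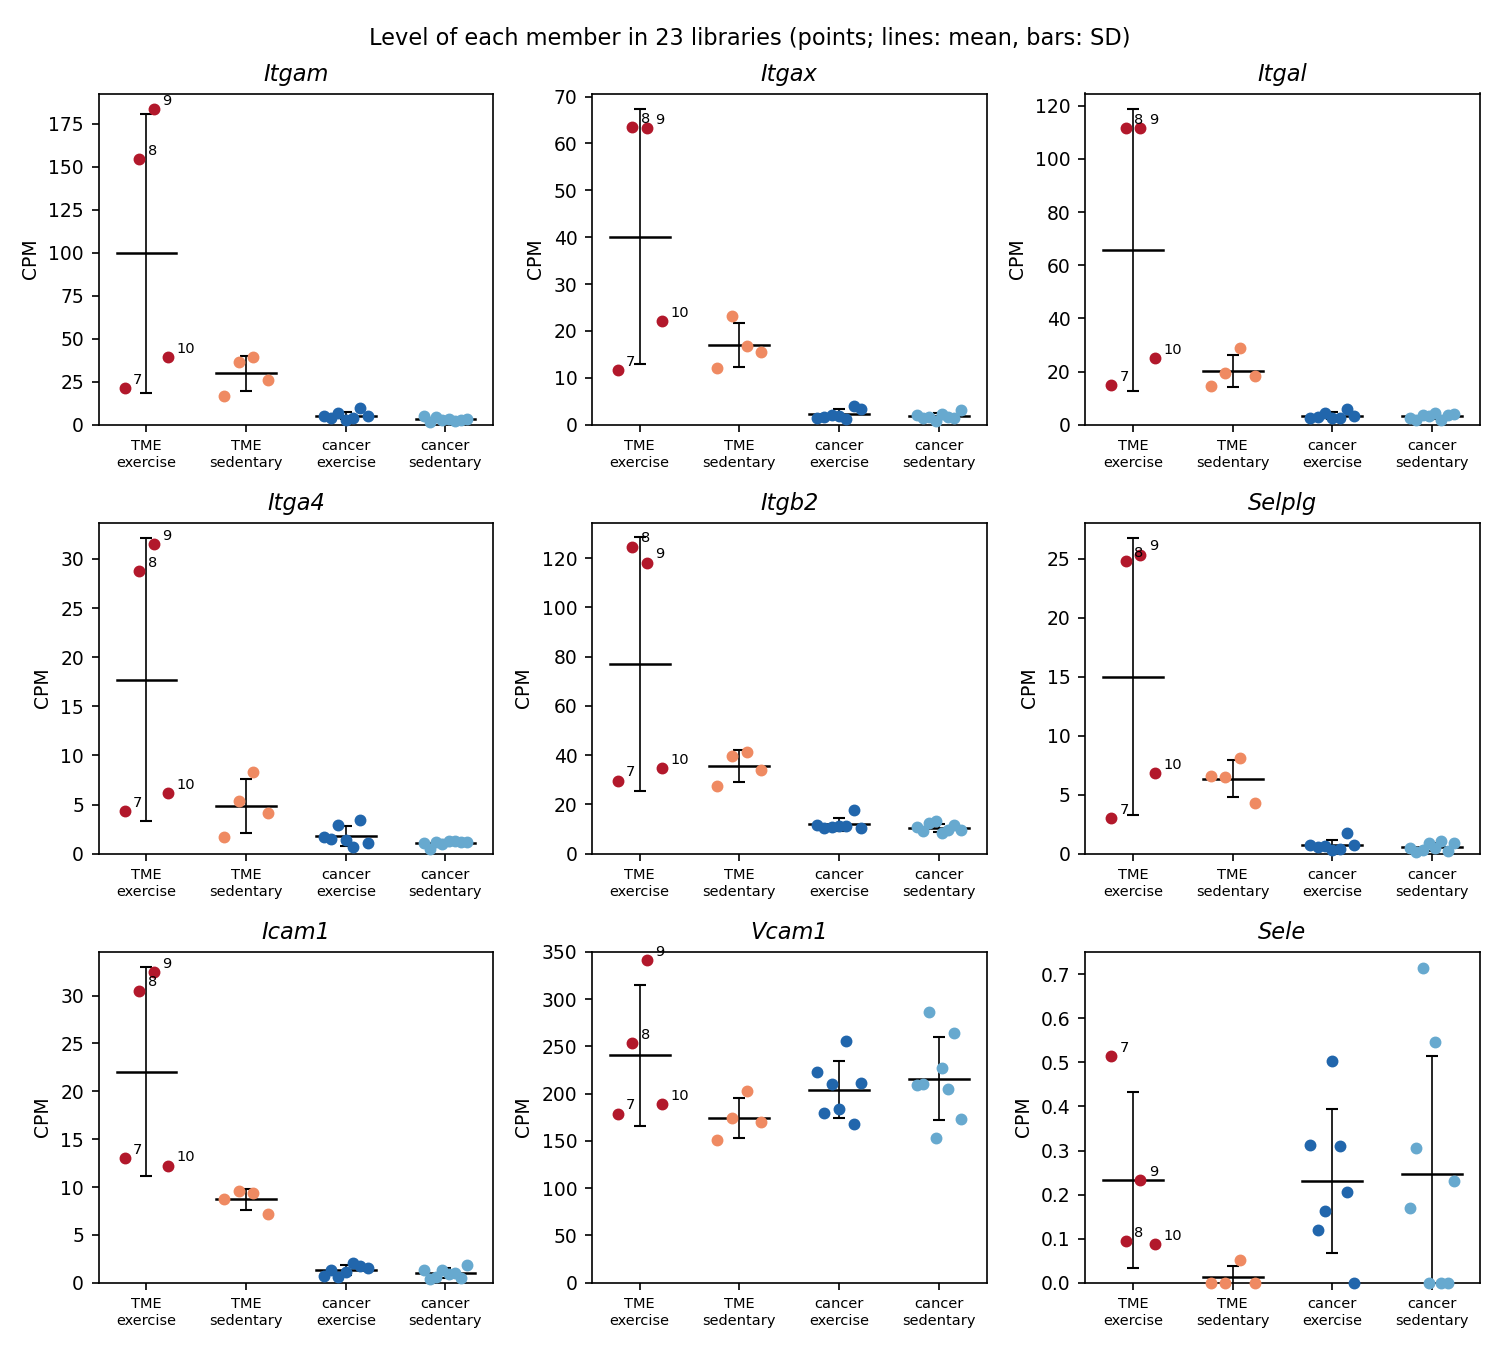
CPM of each gene in each of the 23 libraries (points, with the library number for TME cells from exercised mice), with the group mean (line) and SD (bars). Libraries 8 and 9 of TME cells from exercised mice stand above all other libraries for the integrin chains, Selplg and Icam1, the ranges of Vcam1 overlap in all 4 groups, and Sele stays under 0.715 CPM.

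No cancer library reached any TME library for 6 of the 9 genes, Itgam, Itgax, Itgal, Itgb2, Selplg and Icam1, which compares with 5.19% of all genes tested. Without libraries 8 and 9 the same 7 genes passed, with smaller log2 fold changes of TME over cancer cells: 2.91 for Itgam, 3.08 for Itgax, 2.64 for Itgal, 1.62 for Itgb2, 1.90 for Itga4, 3.12 for Selplg and 3.22 for Icam1. The 7 also passed among sedentary libraries alone, where log2 fold changes ran from 1.79 for Itgb2 to 3.48 for Selplg, and among exercised libraries alone, where they ran from 2.77 for Itgb2 to 4.44 for Selplg. In exercised libraries 7, 8 and 10, the numbers found in both sorts, a fit with the number as a block gave 2.01 for Itgb2 to 3.39 for Selplg, and all 7 passed. The 12 pan-leukocyte markers had a median log2 fold change of 3.94 in the main comparison, and their summed level was 187 to 1088 CPM in TME cells with exercise, 284 to 345 CPM in TME cells without, 27.0 to 69.2 CPM in cancer cells with exercise and 16.4 to 34.7 CPM in cancer cells without. None of them was at 0 in a cancer library, and their part in the levels of the 9 genes there was not tested.

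Levels of different genes were compared as CPM per kilobase of exon. Vcam1 ranked first by mean in every group, with 27.1 ± 8.4 CPM per kb in TME cells with exercise and 19.7 ± 2.4 without (SD, n = 4 each). In cancer cells it had 23.03 ± 3.38 with exercise and 24.3 ± 4.9 without (SD, n = 7 and 8). Itgb2 was second by mean in every group, at 25.2 ± 16.9 CPM per kb in TME cells with exercise and 11.7 ± 2.1 without. In cancer cells Itgb2 stood at 3.94 ± 0.87 with exercise and 3.48 ± 0.54 without. Single libraries could differ. In exercised TME library 8 Itgb2 reached 40.9 CPM per kb, above the highest Vcam1 value of that group, 38.4 in library 9. Within library 9 Itgb2 also lay just above Vcam1. Itgam came next, with 19.8 ± 16.2 CPM per kb in TME cells with exercise and 5.94 ± 2.08 without, and 1.06 ± 0.45 in cancer cells with exercise and 0.635 ± 0.233 without. In libraries 7 and 10 alone the TME levels with exercise were 20.7 CPM per kb for Vcam1, 10.6 for Itgb2 and 6.04 for Itgam (means of 2 libraries), in the same order. Itgam would be higher on this scale, and might rank otherwise, if reads on the exon bases it shares with Gm49368 had gone uncounted. In TME cells from exercised mice the ranges of the first 8 genes in this order each overlapped with the next, whereas in TME cells from sedentary mice Vcam1, Itgb2 and Itgam did not overlap with each other. In both cancer groups Vcam1 and Itgb2 stood apart from each other and from Itgam, and from Itgam down all neighbours overlapped.

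The beta-2 integrin chains can be set against their common partner in the same units. The summed level of Itgam, Itgax and Itgal per kb was 1.39 ± 0.34 times that of Itgb2 in TME cells from exercised mice (0.916 to 1.72, n = 4; 0.916 and 1.43 in libraries 7 and 10) and 1.06 ± 0.13 times in TME cells from sedentary mice (0.898 to 1.16, n = 4). In cancer cells the ratio was 0.517 ± 0.136 with exercise (n = 7) and 0.442 ± 0.143 without (n = 8). All 15 cancer libraries, at 0.270 to 0.685, lay below all 8 TME libraries. The ratio was below 1 in every cancer library and in 2 of the 8 TME libraries, exercised library 7 and sedentary library 4. These counts rest on the length used for Itgam. Gm49368 has no row among the counted symbols, so the case that follows may not apply. Set against only its 1574 exon bases outside Gm49368, as if reads on the shared bases had gone uncounted, the ratio was 1.86 to 3.79 in TME cells with exercise, 1.71 to 2.44 in TME cells without, 0.719 to 1.51 in cancer cells with exercise and 0.519 to 1.16 in cancer cells without. It was then below 1 in no TME library, in 3 of 7 cancer libraries with exercise and in 5 of 8 without, and all TME libraries still lay above all cancer libraries. Itgam made up 50.2% ± 3.4 of the 3 alpha chain mRNAs in TME cells with exercise and 46.6% ± 3.7 without, and 51.3% ± 5.4 in cancer cells with exercise and 41.8% ± 7.6 without. In TME libraries 7 and 10 with exercise it was 47.2% and 48.3%. With the shorter length these shares averaged 76.2% in TME cells with exercise and 73.5% without, and 76.9% in cancer cells with exercise and 69.1% without. The share of Itgal in cancer cells was 25.4% ± 2.0 with exercise and 32.9% ± 7.6 without. These shares rest on few reads in cancer cells, where Itgax had 18 to 98 counts per library, and they were not tested.

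**Figure D2:**
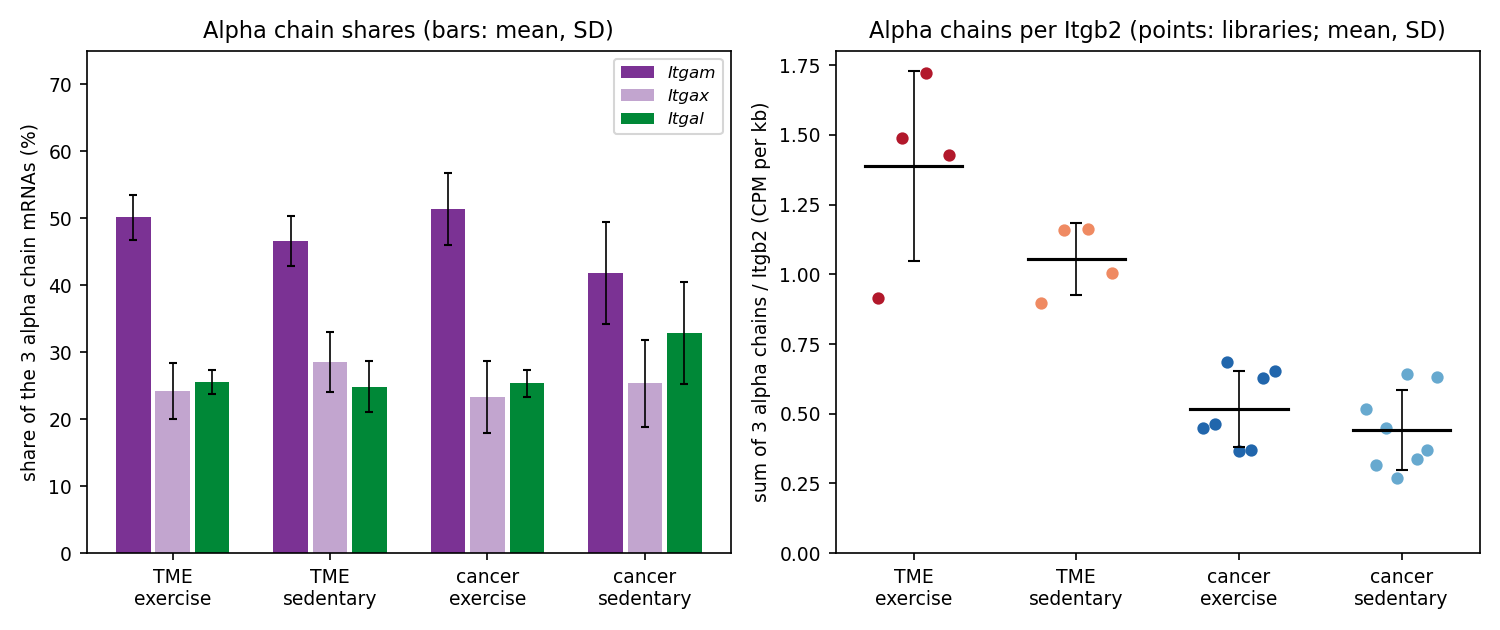
Left, mean share (bars, with SD) of Itgam, Itgax and Itgal in the summed CPM per kb of the 3 alpha chains in each group. Right, that sum divided by Itgb2 in each library (points, with mean and SD): all TME libraries lie at 0.898 or above and all cancer libraries at 0.685 or below.

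Other genes of the same process were taken from lists written for this purpose. Among 16 genes of integrin activation, 12 were higher and 1 was lower in TME cells, with a median log2 fold change of 1.47. Rac2, a GTPase of blood cells, changed by 4.39 ± 0.32, Fermt3 (kindlin-3, which binds integrin beta tails) by 3.19 ± 0.26, Fyb (the adaptor ADAP) by 2.38 ± 0.20 and Cytip, a cytohesin-binding protein, by 2.02 ± 0.17 on the log2 scale. Of 14 other integrin subunits tested, 5 were higher and 7 were lower in TME cells, with a median of -0.27. Itga9 at 3.61 ± 0.30 and Itgb7, a partner of Itga4, at 2.49 ± 0.28 were among those that rose, and Itgb8 at -1.25 ± 0.11 and Itgav at -0.97 ± 0.10 among those that fell.

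Of 16 selectins, selectin ligands and glycosylating enzymes tested, 7 were higher and 4 lower in TME cells, with a median log2 fold change of 0.01. The sialomucins Cd34 at 5.01 ± 0.30 and Emcn at 4.37 ± 0.39 and the enzyme Gcnt1 at 3.34 ± 0.35 rose, and Cd44, a hyaluronan receptor that can carry selectin ligands, fell by 0.80 on the log2 scale. Among 15 other endothelial ligands and junction molecules tested, 8 were higher and 3 lower, with a median of 1.72. These included Icam2, a further ligand of LFA-1, at 5.29 ± 0.50, and Pecam1, which leukocytes bind while crossing endothelium, at 3.94 ± 0.28. Of 14 inducers and feedback targets of NF-kB, the pathway that switches on Icam1, Vcam1 and Sele in endothelium, 8 were higher and 1 lower, with a median of 0.35, and Il1b at 3.62 ± 0.24 and Tnf at 3.15 ± 0.28 rose. All these values are edgeR log2 fold changes of TME over cancer cells with SE.

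The second question was how the 9 genes differed with exercise within TME cells. None of the 8 genes tested passed the threshold, and none of 16273 genes did, so that 0% were called in either direction with edgeR. Sele did not pass the filter on low counts. At an unadjusted p under 0.05 edgeR returned 5 of the 8, Itgam, Itgal, Itga4, Icam1 and Vcam1, against 8.44% of all genes (1373). DESeq2 called 41 genes, 0.252% of those tested, and limma voom called 0.

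All 8 log2 fold changes of exercise over sedentary were above 0, as were 51.3% of all genes tested, and their median was 1.27 against 0.01 for all genes. The level of Itgam averaged 99.7 ± 81.3 CPM in TME cells from exercised mice and 29.8 ± 10.4 CPM in TME cells from sedentary mice (SD, n = 4 each), a log2 fold change of 1.71 ± 0.71 (SE; edgeR, adjusted p = 0.586). For Itgax, Itgal and Itgb2 the log2 fold changes were 1.22 ± 0.54, 1.67 ± 0.68 and 1.08 ± 0.50, with adjusted p of 0.589, 0.586 and 0.590 from edgeR. Those of Itga4 and Selplg were 1.81 ± 0.75 and 1.21 ± 0.62, with adjusted p of 0.586 and 0.593.

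For each of these 6 genes libraries 8 and 9 lay above all 4 sedentary libraries, and libraries 7 and 10 lay within or below the sedentary range. Without libraries 8 and 9 the log2 fold changes were 0.02 for Itgam, -0.01 for Itgax, -0.01 for Itgal, -0.14 for Itgb2, 0.09 for Itga4 and -0.37 for Selplg. Kept to all 8 libraries but with the pan-leukocyte level as covariate, they were 0.35, 0.22, 0.35, 0.18, 0.48 and -0.09 in the same order of genes. The pan-leukocyte markers themselves had a median log2 fold change of 1.15, all 12 above 0 and none past the threshold. None of the 12 was at 0 in a TME library. The endothelial markers had a median of -1.05, with 11 of 12 below 0. That value leaned on sedentary library 4, whose endothelial level of 4.87 stood above 2.93, 2.87 and 2.68 in sedentary libraries 6, 9 and 10 and which also had the highest mitochondrial share. Without it the median was -0.22, with 9 of 12 below 0. With the endothelial level as covariate the log2 fold changes were 0.55 for Itgb2 to 1.10 for Icam1 and 0.28 for Vcam1, and without library 4 in the same fit they were 0.26 for Itgb2, 0.94 for Icam1 and 0.24 for Vcam1.

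Without sedentary libraries 4 and 6, which had the highest mitochondrial shares, the log2 fold changes of exercise over sedentary were 1.60 for Itgam, 1.31 for Itgax, 1.48 for Itgal, 1.03 for Itgb2, 1.504 for Itga4, 1.27 for Selplg, 1.41 for Icam1 and 0.37 for Vcam1. None of 17669 genes passed in that edgeR fit, and 903 had an unadjusted p under 0.05.

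Among the 8 genes tested, Icam1 was the one whose 4 exercised TME libraries all lay above its 4 sedentary ones, which was so for 1.95% of all genes tested. It averaged 22.05 ± 10.93 CPM in TME cells from exercised mice and 8.73 ± 1.11 CPM in TME cells from sedentary mice (SD, n = 4 each), with a log2 fold change of 1.32 ± 0.32 (edgeR, adjusted p = 0.586). DESeq2 gave it 1.31 with an adjusted p of 0.0326, and limma voom 1.55 with an adjusted p of 0.152. Without libraries 8 and 9 the edgeR log2 fold change was 0.54 ± 0.24, with an unadjusted p of 0.0396 and an adjusted p of 0.9999, and 468 of 17137 genes had an unadjusted p under 0.05 in that fit. None of the other 7 genes reached that level in the same fit. With no filter on low counts Icam1 did not reach it either, at 0.54 ± 0.28 (edgeR, unadjusted p = 0.0546). When the pan-leukocyte level was a covariate the value of Icam1 was 0.78 ± 0.18 (edgeR, adjusted p = 0.654).

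Set against the pan-leukocyte level of its own library, on the log2 scale, Icam1 stood at -0.60 ± 0.59 in TME cells from exercised mice and -1.05 ± 0.16 in TME cells from sedentary mice (SD, n = 4 each). The highest value, 0.22, came from library 7 of the exercised mice, the TME library with the lowest pan-leukocyte level. That library also had the highest level of 10 neutrophil markers, whose mean log2 CPM was 3.81, 3.47, 3.24 and 2.95 in TME libraries 7, 8, 9 and 10 of exercised mice and 1.85, 2.96, 1.71 and 2.85 in TME libraries 4, 6, 9 and 10 of sedentary mice. All 10 had log2 fold changes above 0, with a median of 1.06, or 0.35 without libraries 8 and 9, none passed, and their part in the level of Icam1 was not tested. By group means some integrin chains moved further than Icam1 on this scale, with Itgam at 1.21 ± 0.25 with exercise and 0.64 ± 0.51 without. Itgal stood at 0.63 ± 0.20 and 0.11 ± 0.31, and Itga4 at -1.26 ± 0.22 and -2.08 ± 0.88, in that order. Itgax stood at 0.08 ± 0.15 and -0.13 ± 0.40, Itgb2 at 1.05 ± 0.24 and 0.96 ± 0.23, and Selplg at -1.49 ± 0.24 and -1.53 ± 0.27. Vcam1 was lower with exercise, at 2.94 ± 0.92 against 3.26 ± 0.11. In libraries 7 and 10 alone the means were -0.17 for Icam1, 1.18 for Itgb2 and -1.62 for Selplg. They were 1.03 for Itgam, 0.46 for Itgal and -1.43 for Itga4. In sedentary TME libraries 4, 6, 9 and 10 Itgam stood at -0.07, 1.06, 0.94 and 0.64, and Itgal at -0.29, 0.14, 0.48 and 0.13. Itga4 stood there at -3.32, -1.69, -1.31 and -1.99, and Icam1 at -0.995, -0.86, -1.13 and -1.22. The larger shifts of these 3 integrin chains thus leaned on sedentary library 4, which also had the highest mitochondrial share. These ratios are descriptions and were not tested.

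Vcam1 averaged 241 ± 75 CPM in TME cells from exercised mice and 174 ± 21 CPM in TME cells from sedentary mice, a log2 fold change of 0.44 ± 0.19 (edgeR, adjusted p = 0.586). Libraries 8 and 9 lay above the sedentary range and libraries 7 and 10 within it, and without libraries 8 and 9 the value was 0.08 ± 0.15. Sele, at 28 counts in the 4 exercised libraries against 2 in the 4 sedentary ones, took 14 of its 28 counts from library 7. Unlike the integrins it was not highest in libraries 8 and 9, which had 3 and 9 counts. In CPM, all 4 exercised libraries lay above all 4 sedentary ones for Sele, as for Icam1, but on very few counts. A fit with no filter on low counts gave it a log2 fold change of 3.46 ± 1.55 (edgeR, adjusted p = 0.572), which depends on how that fit treats 3 libraries at 0. Sele had 16 counts in exercised libraries 7 and 10, and the same fit without libraries 8 and 9 gave 3.85 ± 2.16 (edgeR, adjusted p = 0.957).

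**Figure D3:**
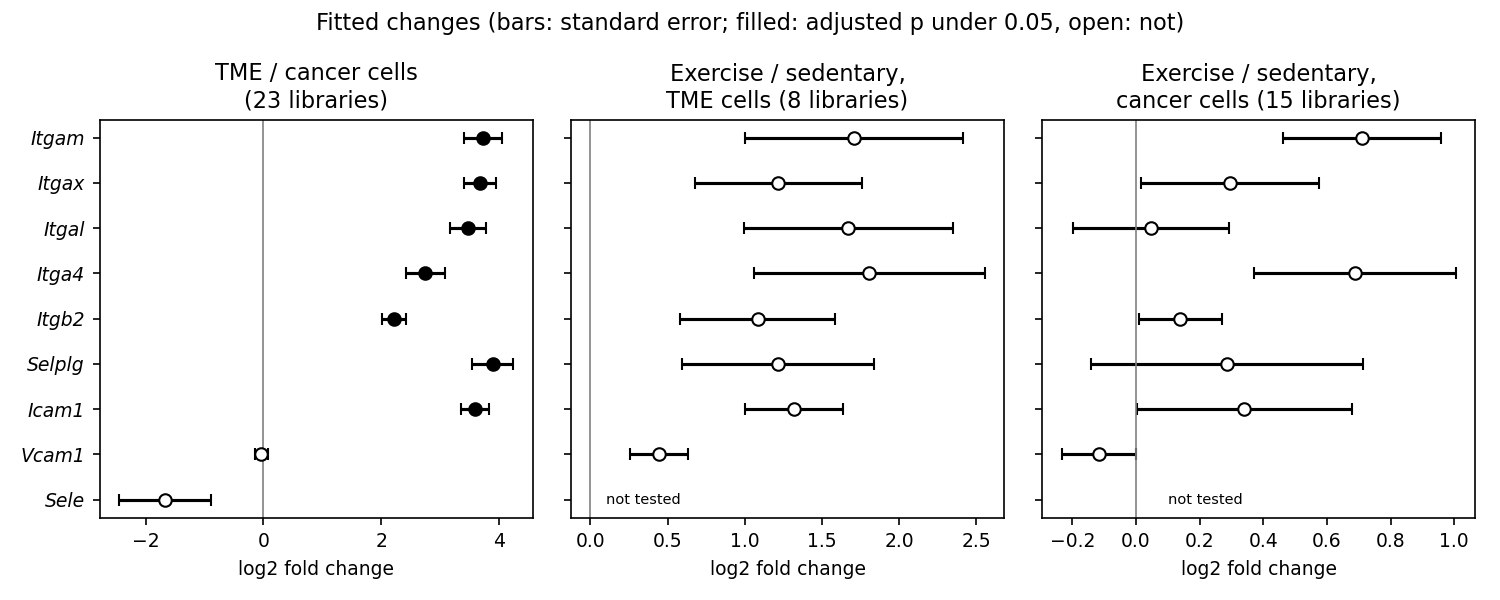
Fitted log2 fold change of each gene with its SE in 3 comparisons, TME over cancer cells, exercise over sedentary in TME cells, and exercise over sedentary in cancer cells, each panel with its own axis. Filled points passed an adjusted p of 0.05 with edgeR: 7 genes in the first panel and none in the other 2, where Sele was not tested.

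**Figure D4:**
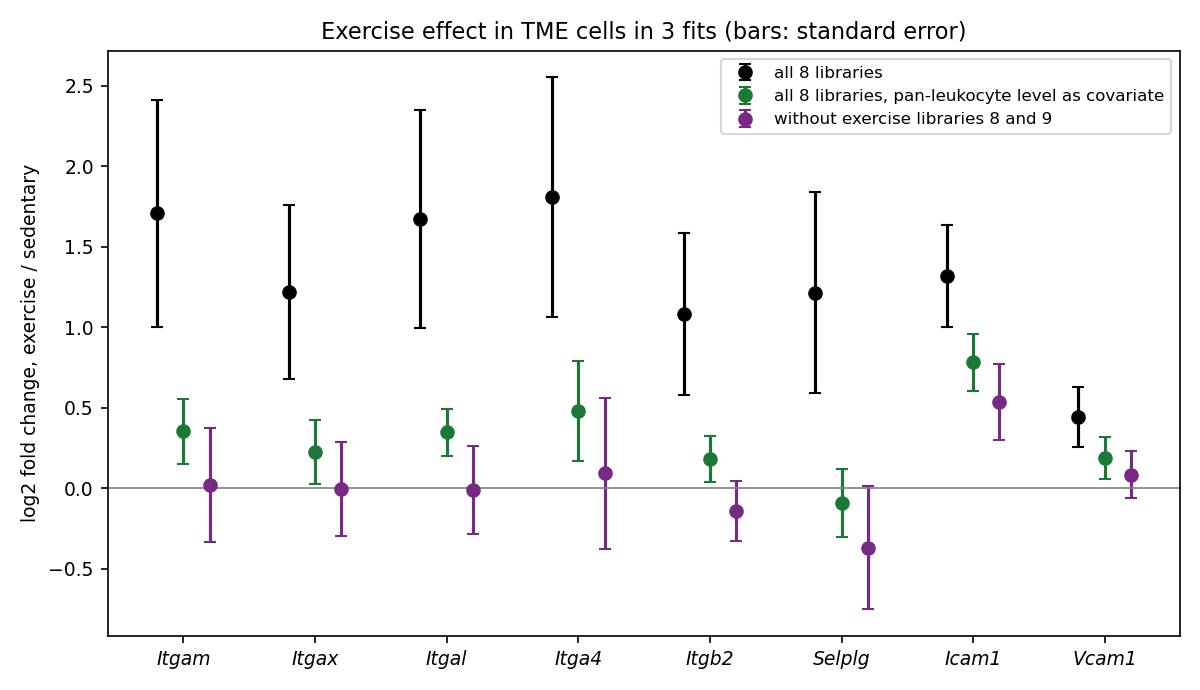
Log2 fold change of exercise over sedentary in TME cells with its SE for the 8 genes tested, in a fit of all 8 libraries (black), with the pan-leukocyte level as covariate (green) and without exercised libraries 8 and 9 (purple). Without those libraries the values lie between -0.37 for Selplg and 0.54 for Icam1.

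None of the genes in the lists of the same process passed in TME cells with exercise either. The 16 genes of integrin activation had a median log2 fold change of 0.55 with 15 above 0, and Vav1, an exchange factor for Rac, had the smallest p with 1.61 ± 0.54 (edgeR, adjusted p = 0.586). Among the selectin list Selp, the P-selectin of platelets and endothelium, stood at 1.87 ± 0.73, while Emcn stood at -1.38 ± 0.57 and Chst2, a sulfotransferase of selectin ligands, at -0.41 ± 0.15. The endothelial list had a median of -0.22 with 10 of 15 below 0, and Cdh5 (VE-cadherin) stood at -1.28 ± 0.65. Tnf, an inducer of Icam1, Vcam1 and Sele, averaged 9.44 ± 2.49 CPM in TME cells from exercised mice and 3.62 ± 2.20 CPM in TME cells from sedentary mice, at 1.34 ± 0.42 (edgeR, adjusted p = 0.586), and the NF-kB list as a whole had a median of 0.10.

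In cancer cells none of the 8 genes tested passed with exercise, nor did any of 15096 genes (0% called) with edgeR. At an unadjusted p under 0.05 there were 2 of the 8, Itgam and Itga4, against 12.6% of all genes (1901). DESeq2 called 161 genes (1.07%) and limma voom 196, none of them among the 8. Of the 8 log2 fold changes of exercise over sedentary 7 were above 0, against 47.4% of all genes tested, and the median was 0.29 for the 8 genes and -0.01 for all genes tested. The 12 pan-leukocyte markers were all above 0 in the same comparison, with a median of 0.57. Medians were 0.47 for 10 macrophage markers, 0.88 for the 3 T cell markers tested and 0.83 for the 5 mast cell markers tested. The median was 0.32 for the 6 neutrophil markers tested, and none of these markers passed in this fit. With no filter on low counts the macrophage marker Adgre1 passed, at 1.24 ± 0.25 (edgeR, adjusted p = 0.0325).

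Itgam averaged 5.34 ± 2.27 CPM in cancer cells from exercised mice (n = 7) and 3.19 ± 1.17 CPM in cancer cells from sedentary mice (n = 8, SD), with a log2 fold change of 0.71 ± 0.25 (edgeR, adjusted p = 0.260). Itga4 averaged 1.79 ± 0.99 CPM with exercise and 1.09 ± 0.28 CPM without, with a log2 fold change of 0.69 ± 0.32 (edgeR, adjusted p = 0.377). In 5 of the 7 exercised libraries Itga4 lay above all 8 sedentary ones. None of the 8 genes had every exercised library above every sedentary one, which was so for 0.298% of all genes tested. The other log2 fold changes were 0.30 ± 0.28 for Itgax, 0.05 ± 0.24 for Itgal, 0.14 ± 0.13 for Itgb2, 0.29 ± 0.43 for Selplg, 0.34 ± 0.34 for Icam1 and -0.12 ± 0.12 for Vcam1.

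Library 8 of the exercised mice was the highest of its group for all 5 integrin chains and Selplg, and it also had the highest pan-leukocyte level of the cancer libraries. Without it the log2 fold change was 0.50 for Itgam, 0.46 for Itga4, 0.10 for Itgax, -0.15 for Itgal, 0.02 for Itgb2 and -0.09 for Selplg. With the pan-leukocyte level as covariate the values were -0.02 for Itgam and -0.19 for Itga4. Sele had 39 counts with exercise and 40 without, over 7 and 8 libraries.

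Of the lists, Tln1 (talin, which activates integrins from inside the cell) had the smallest p in cancer cells, at 373 ± 34 CPM with exercise and 295 ± 26 CPM without, a log2 fold change of 0.31 ± 0.07 (edgeR, adjusted p = 0.116). Cdh5 stood at -0.60 ± 0.16 (adjusted p = 0.133) and Glg1, an E-selectin ligand, at 0.22 ± 0.06 (adjusted p = 0.177), both from edgeR. None of the lists of the same process had a member past the threshold.

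Whether exercise acted differently in the 2 sorts was tested as the difference of the log2 fold changes, TME minus cancer cells. No gene of 17503 passed with edgeR (0% called), while DESeq2 called 2 (0.0114%) and limma voom 36, none of them among the 9. At an unadjusted p under 0.05 there were 4 of the 9, against 7.52% of all genes (1316). This fit, like that of TME against cancer cells, used 1 estimate of spread per gene for both sorts, whose spread differed. The SE of the difference for Itgal, 0.62, was below the 0.68 of its exercise effect in TME cells alone. The p-values of the difference may therefore be too small. The difference was above 0 for all 9 genes and for 51.7% of all genes tested, and its median was 0.96 for the 9 and 0.01 for all.

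Itgal had the smallest p, with a difference of 1.60 ± 0.62 (edgeR, adjusted p = 0.591). Vcam1 followed at 0.54 ± 0.23, Itgb2 at 0.93 ± 0.41 and Sele at 3.35 ± 1.53, with adjusted p of 0.603, 0.626 and 0.637 from edgeR. Without libraries 8 and 9 the difference was -0.08 for Itgal, -0.30 for Itgb2 and -0.70 for Itgam, 0.18 for both Vcam1 and Icam1, and 3.76 ± 1.71 for Sele (edgeR, adjusted p = 0.974).

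The genes most like each of the 9 over the 23 libraries were ranked by the root mean square difference of centred log2 CPM, over 12130 other genes with a mean of at least 1 CPM. Nearest to Itgam were Mpeg1, a pore-forming protein of macrophages, at 0.22, then Csf1r and Cd53. Itgal was nearest to Ptprc (CD45) at 0.27, then Ctsc and Csf1r, and Itgb2 to Fyb at 0.24, then Stab1 and Pik3cd. For Itgax the nearest were Plbd1, Plek and Srgn, from 0.38, for Itga4 Tlr13, Itgb7 and Apobec1, from 0.45, and for Selplg Rab3il1, Laptm5 and Myo1g, from 0.46.

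Icam1 was nearest to Lilrb4a at 0.49, then Csf2ra and Cd83. The neighbours of Vcam1, Leprotl1 at 0.15, Nsmaf and Arhgap17, are genes that, like it, vary little over the 23 libraries. Those of Sele, Ict1os, Zfp442 and Fanci, began at 0.76, and Sele had 0 to 14 counts per library. These likenesses are descriptions over 23 libraries that share the gap between the sorts and libraries 8 and 9.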

How the data were processed

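Raw read counts per gene symbol, as deposited by the authors for 23 libraries, were the only input. The submitters' processing notes name STAR, featureCounts and the mm10 build, with no version, annotation release or strand setting. Per the labels' protocols, Trizol RNA went into a KAPA Standard mRNA-Seq library.

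From these counts CPM were computed with TMM scaling over all 23 libraries, log2 CPM with a prior count of 2, and CPM per kilobase with the exon union of GENCODE M21, matched by symbol for 46394 of 48397 symbols. Comparisons used edgeR 4.0.16 (robust quasi-likelihood test, filterByExpr, two-sided, R 4.3.3), with Benjamini-Hochberg adjustment over all genes of the fit. Exercise was compared with sedentary within each sort, TME with cancer cells as the mean of both TME groups minus the mean of both cancer groups, and the difference of the exercise effects by an interaction contrast. DESeq2 1.42.0, limma 3.58.1 (voom with sample weights), other scalings and filters, covariates and libraries left out were alternatives. The scripts were tested on simulated counts.

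The members, gene lists and marker lists were chosen with earlier results of these data known. Named are all 9 members, up to 4 genes of each list with the smallest p, and the 3 genes most like each member, leaving out predicted genes and 1 gene that is not reported here. Chosen after seeing the data were leaving out exercised TME libraries 8 and 9 (also with no filter), leaving out sedentary TME library 4 in the endothelial covariate fit, the block in exercised pairs and the shorter length of Itgam.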

Additional observations from a re-analysis of the deposited data

Results flagged for a closer look

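In 36 combinations of gene and group the highest or lowest library was set against the others by Dixon's test on log2 CPM, which chance alone passes in about 1 in 20 groups, and 3 passed, the last of them only because of ties at 0. Itga4 was lowest in library 3 of cancer cells from sedentary mice, with 0.459 CPM (12 counts) and a gap that was 0.675 of the range of its 8 libraries. Itgb2 was highest in library 8 of cancer cells from exercised mice, with 17.9 CPM and a gap of 0.770 of the range of 7 libraries, and that library also had the highest pan-leukocyte level of the cancer libraries. Sele had 2 counts in library 9 of TME cells from sedentary mice and 0 in the other 3 libraries, where any count above 0 makes the gap 1 times the range, so that passing says nothing about that library.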

How the results depend on the processing

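The 7 genes higher in TME than in cancer cells passed under all 34 alternatives, with 4363 to 9738 genes called against 9201, the lowest in 3 exercised pairs with a replicate block. For Vcam1 the sign of TME over cancer cells changed, with log2 fold changes of 0.018 with RLE size factors, 0.032 with a mean CPM filter, 0.018 with DESeq2, 0.046 with limma voom, 0.079 without sedentary TME libraries 4 and 6 and 0.33 in exercised libraries alone, and leaving out 1 library gave -0.11 to 0.069. Sele, with an adjusted p of 0.0714, passed when any of 6 single libraries was left out, where the lowest adjusted p was 0.0459 (edgeR), and its values ran from -2.74 to -1.34.

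For exercise in TME cells the count of genes called was 0, against 6 with no filter, 24 with no filter and libraries 8 and 9 left out, and 41 with DESeq2, which called Icam1. Without libraries 8 and 9, Itgax, Itgal, Itgb2 and Selplg stood at -0.0058, -0.011, -0.14 and -0.37 (-0.0037, -0.010, -0.14 and -0.37 with no filter), and Selplg at -0.092 with the pan-leukocyte covariate. For exercise in cancer cells the count was 0, against 28 with no filter, 161 with DESeq2, 196 with limma voom, 1 with the endothelial covariate, 1 in a fit of all 23 libraries and 0 to 43 when 1 library was left out, with 43 without sedentary library 4. There the sign changed with the pan-leukocyte covariate to -0.023 for Itgam, -0.26 for Itgax, -0.62 for Itgal, -0.19 for Itga4, -0.13 for Itgb2 and -0.82 for Selplg, and with the endothelial covariate to -0.17 for Itgax, -0.14 for Itgal, -0.041 for Itga4 and -0.022 for Selplg. Leaving out 1 library gave -0.15 to 0.14 for Itgal and -0.085 to 0.49 for Selplg.

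For the difference of the exercise effects the count was 0, against 2 with DESeq2, 36 with limma voom and 0 to 52 when 1 library was left out, with 52 without exercised TME library 7, none of them among the 9 genes. Without libraries 8 and 9 it was -0.70 for Itgam, -0.31 for Itgax, -0.077 for Itgal, -0.61 for Itga4, -0.30 for Itgb2 and -0.66 for Selplg.

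Same-numbered TME and cancer libraries of exercised mice correlated at 0.201 to 0.399 in all 3 pairs, and 5 of those 6 libraries correlated best with their own number. Those of sedentary mice correlated at -0.156 to 0.115 in 4 pairs (3 of 8 libraries best), exercised and sedentary TME libraries at 0.0412 and 0.341 and cancer libraries at -0.0837 to 0.221 in 5 pairs (2 of 10 best), so the numbers were not taken to pair libraries in the 4 main comparisons. A replicate block gave 0 calls for exercise in either sort, 4 for the difference and 7306 for TME against cancer cells. With the replicate block exercise in cancer cells stood at -0.054 for Itgal, -0.055 for Itgb2, -0.49 for Selplg and 0.011 for Vcam1, and the difference at -0.35 for Selplg. The cause of these changes was not tested. Depth limits Sele, Itga4 and Selplg, which had 0 to 14, 12 to 82 and 4 to 42 counts per cancer library.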
